A study of Oryctolagus cuniculus with 10 samples.

Results

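Vocal folds of dehydrated rabbits with high and with low NR4A3 were compared across genes. The 6 rabbits of the dehydrated group, of 10 rabbits in the series, were divided by their counts of NR4A3 (ENSOCUG00000000737), expressed as CPM, that is, scaled to the total of counts assigned to genes in each library. A rabbit with 100 CPM or more was placed in the high NR4A3 group (rabbits 875, 919 and 922) and a rabbit below 100 CPM in the low NR4A3 group (rabbits 239, 876 and 963). The 4 control rabbits (240, 869, 921 and 964) served only as a reference level. All animals were male New Zealand White rabbits of 6 months, and all were given a sucrose solution to drink before the experiment. The dehydrated rabbits received furosemide, a loop diuretic, intraperitoneally at 5 mg/kg with food and water withheld. Each was euthanized once its body weight loss was near the target of 5%, after a time that varied within the study's dehydrated group. The time of each rabbit is not given in the sources used here. Some dehydrated rabbits of the study needed a further injection, and whether any of these 6 did is not given in the sources used here. The control (euhydrated) rabbits received saline and kept food and water.

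NR4A3 is an orphan nuclear receptor, a transcription factor for which no natural ligand is established. Together with its relatives NR4A1 and NR4A2 it belongs to the immediate early genes, whose transcription starts quickly after hormones, growth factors, adrenergic stimulation or, in skeletal muscle, exercise. The vocal fold combines such a muscle, the thyroarytenoid, with a mucosa of lamina propria and stratified squamous epithelium. Whole folds were extracted, so each library held all of these layers, and fewer cells of a type could not be told apart from less RNA per cell.

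The values that chose the groups were 252 CPM of NR4A3 in rabbit 875, 246 CPM in rabbit 922 and 237 CPM in rabbit 919. In the low group they were 36.2 CPM in rabbit 963, 23.6 CPM in rabbit 239 and 12.8 CPM in rabbit 876. The values nearest to the threshold on either side were those of rabbits 919 and 963, with no dehydrated rabbit between them. The control rabbits had 13.6 CPM (869), 4.79 CPM (964), 2.52 CPM (240) and 1.88 CPM (921), so that 2 of the 3 low rabbits lay above every control and rabbit 876 did not. These values are a description and were not tested, and NR4A3 is left out of everything that follows. The groups were set by a transcript measured in the same libraries, not by a treatment, and the p-values below describe how far other genes separated along with it.

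**Figure D1:**
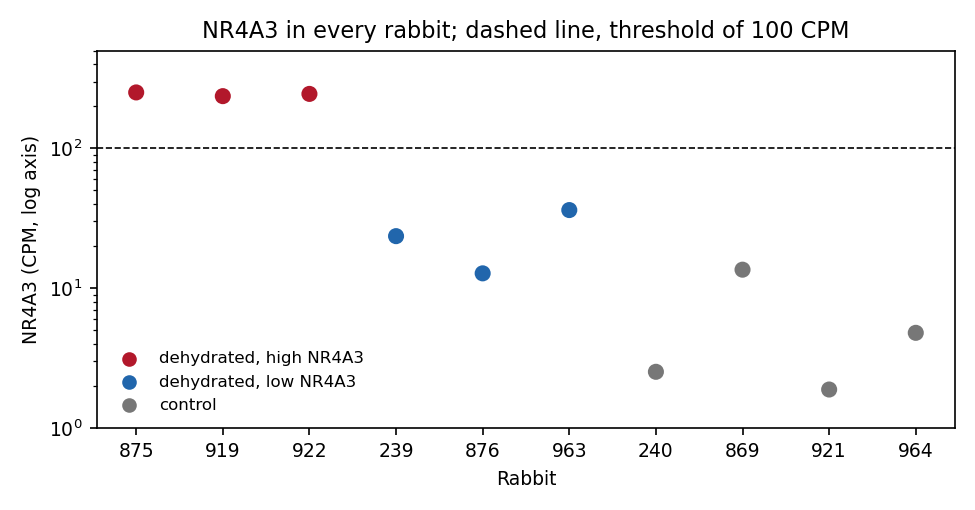
NR4A3 in CPM (log axis) in each of the 10 rabbits, 1 point per rabbit, with the threshold of 100 CPM as a dashed line. The 3 high rabbits lie at 237 to 252 CPM, the 3 low rabbits at 12.8 to 36.2 CPM and the 4 controls at 1.88 to 13.6 CPM.

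Libraries of the high group held 45847047 to 66666313 counts assigned to genes, those of the low group 39039165 to 54560066 and those of the controls 42496048 to 69670859. The smallest detectable level, 3 counts, was 0.0399 to 0.0717 scaled CPM (CPM after TMM scaling between libraries), a limit that covers counting error only. The share of alignments that fell on more than 1 gene was 2.55% in rabbit 875, 2.09% in rabbit 963 and 1.72% in rabbit 239, but 0.487 to 0.516% in rabbits 919, 922 and 876. Each of these library classes therefore held rabbits of both groups. The share of alignments that were not unique reached 19.6 to 35.0% in the high group and 14.6 to 26.0% in the low group, with overlap. All 45 pairs of libraries differed by more than sampling noise. Gene IDs carry no names in the deposited table, so markers of epithelium, muscle, glands or leukocytes could not be looked up, and the labelled tissue was not checked against them.

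The high rabbits resembled one another more closely than the low rabbits did. The first principal component of the 6 dehydrated libraries, which held 59.0% of their variance, placed the high rabbits between 37.9 and 50.9. Rabbits 876 and 239 lay at the other end, at -66.5 and -61.0, and were parted from each other on the second component (17.0%). Rabbit 963 scored -2.63, beside the projected controls at -19.6 to 12.1. Pearson's r across genes of log2(scaled CPM + 0.5), in which genes are not independent replicates, was 0.979 to 0.984 among the high rabbits and 0.946 to 0.949 among the low ones. Rabbit 963 had a higher r with the high rabbits, 0.964 to 0.965, than with the other low rabbits, 0.946 to 0.949. Its r with the controls ranged from 0.955 (rabbit 921) to 0.974 (rabbit 869). Rabbits 239 and 876 had an r of 0.948 with each other and of 0.903 to 0.921 with the high rabbits. In its transcriptome as a whole rabbit 963 thus stood apart from the group its NR4A3 level gave it. The counts of calls below are also given for the fit without it. Rabbit 963 was singled out on the same expression values that are tested, so the counts without it are a description and not independent evidence.

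**Figure D2:**
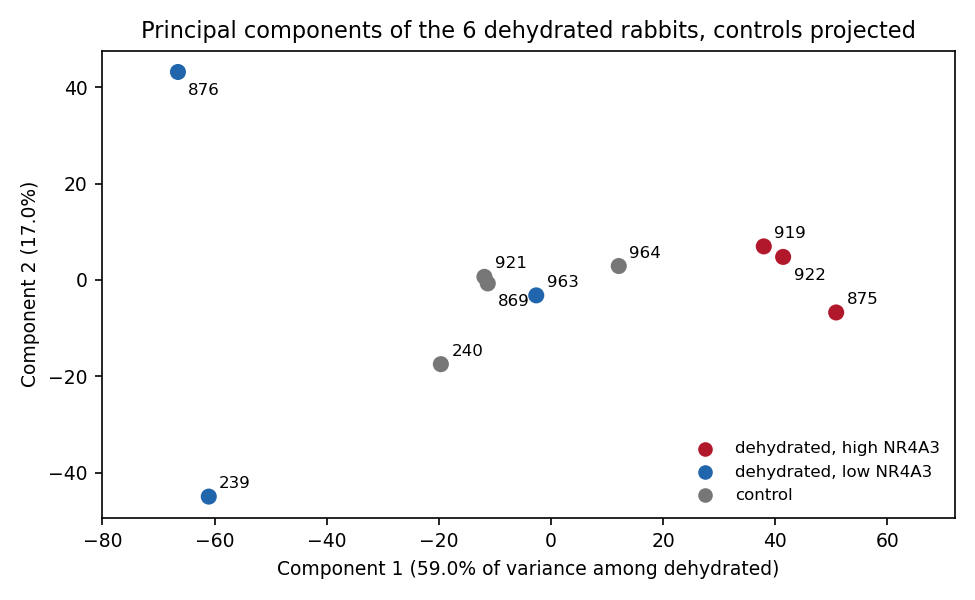
First 2 principal components of log2 expression over genes in the 6 dehydrated rabbits, with the 4 controls projected onto them; each point is 1 rabbit. The high rabbits sit together at 37.9 to 50.9 on component 1. Rabbits 239 and 876 lie at -61.0 and -66.5 on component 1 and apart from each other on component 2, and rabbit 963 lies among the controls.

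Of 14790 genes tested, 566 (3.83%) passed an adjusted p of 0.05 in edgeR's quasi-likelihood test (Benjamini-Hochberg). Of these, 116 (0.784% of genes tested) were higher and 450 (3.04%) were lower in high than in low NR4A3 rabbits. The lowest adjusted p in that edgeR test was 0.00700. At an unadjusted p of 0.05 the count was 3381 (22.9%), 1349 higher and 2032 lower. In 4351 genes (29.4%) the 3 high rabbits did not overlap the 3 low ones, with the high rabbits above in 1927 (13.0%) and below in 2424 (16.4%). All 566 genes were among them, which fixes their direction when a rabbit is left out or when rabbits are compared within a class of library. An exact permutation test of 3 against 3 rabbits cannot go below p = 0.10, and p-values of single genes therefore come from the fit across all genes.

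These counts depended on which rabbits were in the fit. Without rabbit 963, 2789 of 15155 genes (18.4%) passed, 1346 higher (8.88%) and 1443 lower (9.52%), so that the share of lower genes among them was 51.7% in place of 79.5%. Without another rabbit, the count was 121 (rabbit 876), 45 (239), 23 (919), 10 (922) or 5 (875). Of the 2789 genes called without rabbit 963, its own value on the log2 scale lay nearer the mean of the high rabbits in 1901. It lay nearer that of the low rabbits in 888 (31.8%). In the much shorter lists called without another rabbit, that rabbit lay nearer its own group in 43 of 45 genes (239), 116 of 121 (876), 22 of 23 (919), 6 of 10 (922) and 5 of 5 (875).

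**Figure D3:**
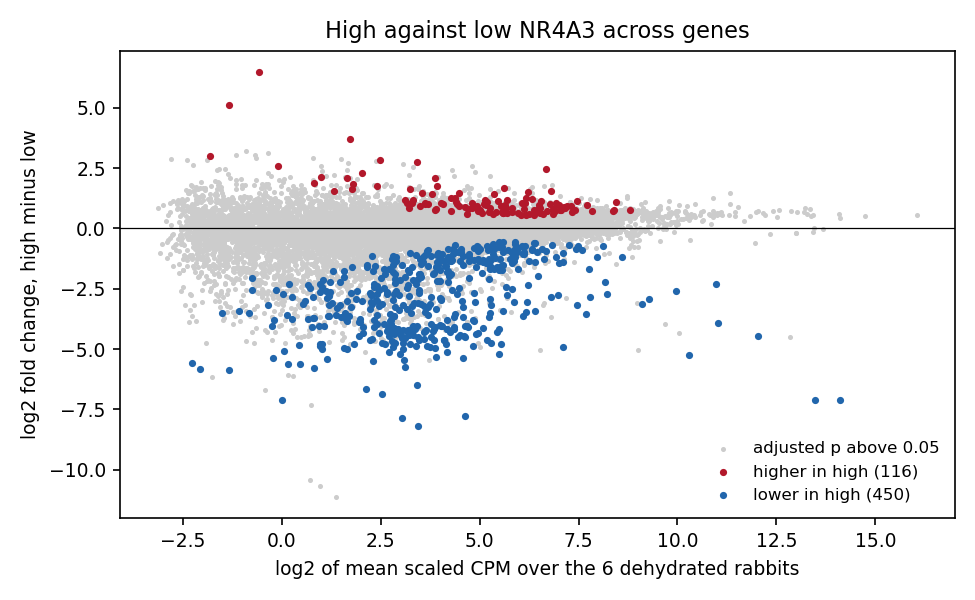
Each of the 14790 genes by mean level over the dehydrated rabbits (x, log2 of scaled CPM) and by log2 fold change of high minus low NR4A3 (y), with genes past an adjusted p of 0.05 coloured. The 450 genes lower in high rabbits reach below -8 and include very abundant transcripts, while most of the 116 higher genes lie under 2.5.

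The lower genes differed by more than the higher ones. Their median log2 fold change was -2.80, from -0.56 to -8.19, and 289 of the 450 differed by at least 2 on the log2 scale. The 116 higher genes had a median of 0.96, from 0.54 to 6.48, and 12 of them reached 2. The median over all genes tested was -0.01. In 310 of the lower genes, but in 21 of the higher ones, the groups were separated by at least 2-fold between their nearest rabbits. In 4 lower and 2 higher genes the group with less had 3 counts or fewer in each rabbit, so that their fitted changes depend on the prior count.

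Lower genes were mostly faint in the high rabbits, with control levels on the log2 scale mostly nearer to those of the low rabbits. The median of their mean levels was 2.78 scaled CPM in high, 21.8 in low and 10.9 in control rabbits. The control mean lay nearer to the low group in 334 of the 450 genes, and all 4 controls lay above every high rabbit in 329. In 57 genes all 4 controls lay below every low rabbit. Within the low group the levels were uneven: rabbit 876 had the highest level of the 3 in 347 genes, rabbit 239 in 78 and rabbit 963 in 25, and in 119 genes the low rabbits spanned more than 2 on the log2 scale. Among the high rabbits such a span was seen in 5 genes.

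A few transcripts carried most of this difference in reads. The 450 lower genes together took 0.529% of gene counts in rabbit 875, 0.775% in rabbit 922 and 1.0% in rabbit 919. In the low group they took 7.51% (963), 9.65% (239) and 13.8% (876), and in the controls 1.98% (964), 6.02% (869), 6.33% (240) and 8.92% (921). The means were 0.768 ± 0.236% in high, 10.3 ± 3.21% in low (SD, n = 3 each) and 5.81 ± 2.87% in control rabbits (SD, n = 4). Every control lay above every high rabbit. The 5 most abundant genes of the set in each library held 70.1 to 80.3% of its counts in the low rabbits and 18.2 to 31.5% in the high ones. These genes were selected for being lower, so the shares describe their weight and were not tested.

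The most abundant lower gene, singled out after its values were seen and without a name in the table, had 90.1, 567 and 107 scaled CPM in rabbits 875, 919 and 922. In rabbits 239, 876 and 963 it had 24505, 46762 and 34587 scaled CPM, and in the controls 4663 to 31353. The low rabbits were thus 139-fold above the high ones (log2 fold change -7.12, adjusted p = 0.0285 by edgeR), and every control lay between the groups or within the low range. The next gene had 17.8, 393 and 84.1 scaled CPM in the high rabbits, 20892, 21956 and 25263 in the low rabbits and 2185 to 15682 in the controls (log2 fold change -7.11, adjusted p = 0.0392 by edgeR). Rabbit 919 had the most of both transcripts among the high rabbits, and rabbit 964 the least among the controls. Without any one of rabbits 239, 875, 876, 919 and 922 neither gene passed, at adjusted p = 0.0539 to 0.175 in edgeR, and without rabbit 963 both did.

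**Figure D4:**
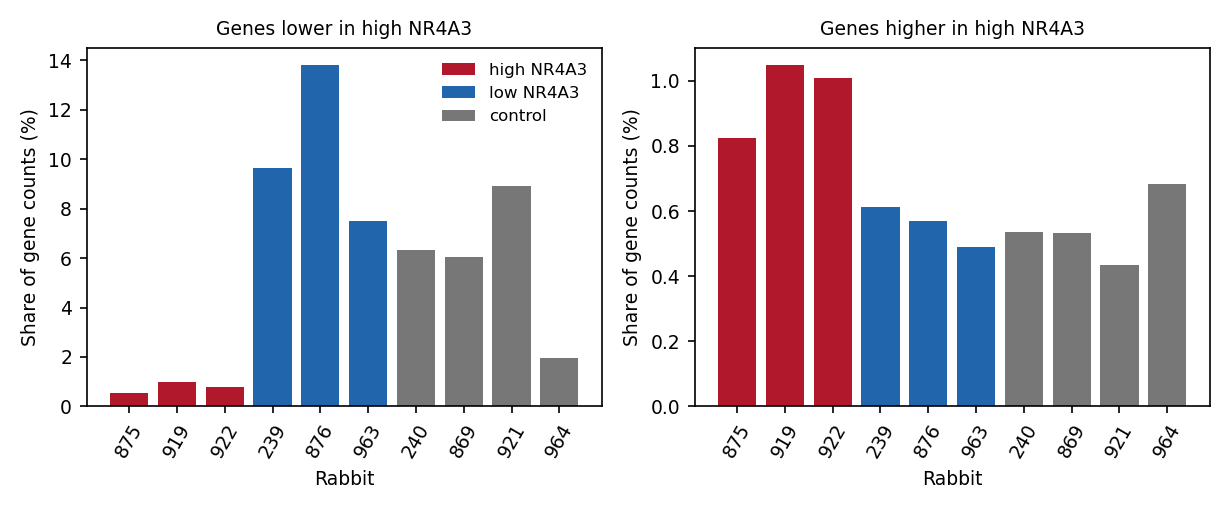
Share of all gene counts (%) taken by the 450 genes lower (left) and the 116 genes higher (right) in high NR4A3 rabbits, 1 bar per rabbit, from 0. The lower genes take at most 1.0% in the high rabbits, 7.51 to 13.8% in the low rabbits and 1.98 to 8.92% in the controls; the higher genes take 0.825 to 1.05% in the high rabbits and at most 0.684% elsewhere.

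The 2 lower genes with the smallest p-values showed the same order in less abundant transcripts. ENSOCUG00000011007 had 1.59, 2.09 and 2.08 scaled CPM in rabbits 875, 919 and 922, against 29.7, 43.7 and 30.2 in rabbits 239, 876 and 963. Its controls lay between the groups, at 5.39 to 18.0 scaled CPM. The log2 fold change was -4.17 ± 0.24 (SE), with adjusted p = 0.00700 by edgeR, and the gene passed in each of the 14 alternative fits. ENSOCUG00000015780 had 1.65, 1.72 and 2.21 scaled CPM in the high rabbits and 59.3, 34.7 and 33.1 in the low ones. Here the controls, at 15.9 to 57.1 scaled CPM, spread over the low range and below it. Its log2 fold change was -4.51 ± 0.30 (SE), with adjusted p = 0.00875 by edgeR, and it passed in all alternatives except that without rabbit 875 (adjusted p = 0.0524).

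The higher genes were moderately expressed, and 52 of the 116 differed by 2-fold or more. The median of their mean levels was 55.4 scaled CPM in high, 28.3 in low and 32.8 in control rabbits. On the scale of log2(scaled CPM + 0.5), the control mean lay nearer to the low group in 106 of the 116 genes. In 67 all 4 controls lay below every high rabbit. These genes were selected for being higher in the high than in the low rabbits, and the same counts over all genes tested were not taken. Together they took 0.825 to 1.05% of gene counts in the high group, 0.489 to 0.612% in the low group and 0.434 to 0.684% in the controls. Control rabbit 964 stood apart from the other controls. On a log2 scale set to 0 at the low mean and 1 at the high mean, its median position over these genes was 0.67. That of rabbits 240, 869 and 921 was -0.42 to -0.04. Over the 450 lower genes the position of rabbit 964 was 0.59, against 0.13 to 0.28 in rabbits 240, 869 and 921.

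Both higher genes with the smallest p-values were near the control level in the low rabbits. ENSOCUG00000003200 had 14.3, 20.0 and 21.8 scaled CPM in rabbits 875, 919 and 922, against 2.88, 2.84 and 2.63 in rabbits 239, 876 and 963 and 1.89 to 5.50 in the controls. The log2 fold change was 2.74 ± 0.22 (SE), with adjusted p = 0.0120 by edgeR. ENSOCUG00000003951 had 9.04, 10.5 and 9.69 scaled CPM in the high rabbits, 1.37, 1.23 and 1.53 in the low rabbits and 1.56 to 3.59 in the controls. Its log2 fold change was 2.82 ± 0.24 (SE), again with adjusted p = 0.0120 by edgeR. In both genes the highest control was rabbit 964. Without rabbit 922 the first gene missed the threshold (adjusted p = 0.0742 by edgeR), and without rabbit 875, 919 or 922 the second did (adjusted p = 0.0506 to 0.0862).

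The other genes of known function were read from the terms under which the study lists genes that differed between dehydrated and control rabbits. These lists were chosen on the same animals and are not independent evidence. Many genes stand under several terms, so the lists share members and their counts are not separate results. Of 137 genes under any term besides NR4A3, 132 were tested, and 13 (9.85%, beside 3.83% of all genes tested) passed in the contrast of high with low NR4A3, 3 higher and 10 lower. Their median log2 fold change was 0.23, with 82 above 0 and 50 below, against 48.5% of all genes above 0. Without rabbit 963, 54 of the 135 tested in that fit passed, 38 higher and 16 lower, beside 18.4% of all genes tested. The number that passed was 4 without rabbit 876, 1 without 239, 919 or 922, and 0 without 875. The genes described by their terms below were singled out after their values were seen, since their IDs have no names here.

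Of the 24 lists examined, axoneme part was the only one of which every tested gene passed, beside 3.83% of all genes. The axoneme is the microtubule core of motile cilia, which beat by the force of dynein motors. All 3 genes listed under axoneme part were lower in high NR4A3 rabbits, by log2 fold changes of -4.89, -4.63 and -4.48 (adjusted p = 0.0418, 0.0432 and 0.0424 by edgeR). The gene that changed most had 1.72, 2.72 and 1.16 scaled CPM in rabbits 875, 919 and 922, and 38.1, 116 and 9.92 in rabbits 239, 876 and 963. Control levels of that gene were 2.77 to 14.3 scaled CPM. High and low rabbits did not overlap in any of the 3 genes, and rabbit 876 was highest and rabbit 963 lowest of the low group in each. A gene listed only under dynein complex (log2 fold change -4.96, adjusted p = 0.0498 by edgeR) and another under axoneme assembly (-4.64, adjusted p = 0.0432) had the same order of rabbits in the low group. Rabbit 963 lay at 5.00 to 9.92 scaled CPM in the 3 axoneme genes, within the range of the controls in each. Without any one of the other 5 dehydrated rabbits none of the 3 passed (adjusted p = 0.0574 to 0.185 by edgeR), and without rabbit 963 all did. With limma-voom 0 of them passed, and with DESeq2 all 3 did. Ciliated cells belong to the respiratory epithelium that borders the folds. How much of that epithelium each library held is not given in the sources used here, and its part in the result was not tested.

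Host defence genes lay on both sides of 0. Of 13 genes under inflammatory response, 8 were above 0 and 5 below (median log2 fold change 0.50). In edgeR's test 0 passed, beside 3.83% of all genes tested. There were 6 at an unadjusted p of 0.05, beside 22.9%, and 2 with DESeq2, beside 14.4%. With limma-voom 0 passed. Of the 7 genes under cell chemotaxis, 1 passed and was lower (median -1.24). A single other gene, also lower, was the call of both cytokine production (12 tested genes, median 0.03) and defense response to bacterium (6 tested genes, median 0.01). Leaving out rabbit 963 raised the share of all genes that passed to 18.4%. Then 3 genes were higher and 0 lower under inflammatory response, and 3 and 1 under cell chemotaxis. Cytokine production, with 13 genes tested in that fit, had 3 higher and 2 lower. Defense response to bacterium, with 8 genes tested there, had 3 and 3. The gene of the cytokine and bacterial lists, listed also under antimicrobial humoral response, defense response to fungus and iron ion binding, had 7.35, 5.47 and 12.3 scaled CPM in rabbits 875, 919 and 922, against 93.0, 83.4 and 89.0 in rabbits 239, 876 and 963. The low rabbits lay close together here, while the controls ranged from 23.9 to 219 scaled CPM. Its log2 fold change was -3.40 ± 0.30 (SE), with adjusted p = 0.0122 by edgeR, and it passed in 13 of 14 alternatives, the exception being that without rabbit 875 (adjusted p = 0.0865). The chemotaxis gene, listed also as an extracellular immune gene, had 0.262, 0.105 and 0.559 scaled CPM in the high rabbits, 35.4, 8.79 and 7.34 in the low ones and 0 to 4.62 in the controls (log2 fold change -5.76, adjusted p = 0.0325 by edgeR). This call was lost without any one rabbit other than 963 (adjusted p = 0.0528 to 0.160). A gene of the exosome and bitter taste terms, at 0.209 to 0.766 scaled CPM in the high and 3.16 to 8.60 in the low rabbits, was lower by log2 fold change -3.62 (adjusted p = 0.0361 by edgeR). Its controls, at 7.94 (rabbit 964) to 49.8 scaled CPM, lay above all high rabbits and, apart from rabbit 964, above all low ones, and this call was also lost without any one rabbit other than 963 (adjusted p = 0.0670 to 0.161).

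S100A8, a calcium-binding protein that forms calprotectin with S100A9 in neutrophils and stressed epithelium, varied widely within both groups. It had 2.55, 12.9 and 3.80 scaled CPM in rabbits 875, 919 and 922 and 37.6, 2.59 and 10.6 in rabbits 239, 876 and 963. The controls ranged from 2.02 (rabbit 964) to 101 scaled CPM. The log2 fold change of -1.41 ± 0.98 (SE) did not pass (adjusted p = 0.429 by edgeR), and the groups overlapped.

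In each list of the epithelial barrier at most 1 gene passed in edgeR's test, beside 3.83% of all genes tested. Of 18 genes listed under cell adhesion, 12 were above 0 and 6 below (median log2 fold change 0.37, from -3.37 to 2.18, against a median of -0.01 for all genes), and 1 passed, lower. Of 17 under cell junction, 13 were above 0 and the same 1 passed (median 0.31, from -0.99 to 0.93). The lists epithelial cell differentiation (14 genes, median 0.47), epidermis development (14 genes, median 0.24) and epithelial cell proliferation (9 genes, median 0.56) had 0 genes past the threshold in edgeR's test. At an unadjusted p of 0.05 they had 3, 4 and 3 genes, beside 22.9% of all genes. With DESeq2 they had 2, 2 and 1, beside 14.4%, and with limma-voom 0. These 3 lists share many of their genes, so their counts are not separate results. Without rabbit 963, 5, 5 and 4 of their genes passed, all higher, where 8.88% of all genes were called higher. In cell adhesion 5 were then higher and 2 lower (38.9% of the list), and in cell junction 5 and 1 (35.3%), beside 18.4% of all genes.

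The adhesion gene that passed was one of CAMSAP3 and PLEKHA7. Both encode proteins of the zonula adherens, the belt of adherens junctions between epithelial cells, where PLEKHA7 anchors microtubules whose minus ends CAMSAP3 binds. Both IDs are listed under the terms that were used to match these names, so those terms could not tell which ID is which. ENSOCUG00000017373 is listed also under extracellular exosome, and ENSOCUG00000022921 is not. ENSOCUG00000022921 had 12.5, 18.1 and 15.8 scaled CPM in rabbits 875, 919 and 922 and 27.2, 32.4 and 32.4 in rabbits 239, 876 and 963, a log2 fold change of -0.99 ± 0.18 (SE), with adjusted p = 0.0392 by edgeR. The groups did not overlap, and the controls lay at 12.6 (rabbit 964) and 51.5 to 72.01 scaled CPM. The gene passed in 7 of 14 alternatives (adjusted p from 6.04e-05 to 0.313) and lost the call without any one rabbit other than 963. ENSOCUG00000017373, the other of the pair, had 41.6, 52.97 and 45.2 scaled CPM in the high and 25.6, 39.1 and 45.9 in the low rabbits (log2 fold change 0.33 ± 0.22 SE, adjusted p = 0.412 by edgeR), with overlap.

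Among the other junction and adhesion genes, CLDN7 came nearest to the threshold. ENSOCUG00000012863, a gene without a name here listed under cell adhesion, was almost as near (log2 fold change -3.37, adjusted p = 0.0621 by edgeR). CLDN7, a claudin of epithelial tight and lateral junctions, had 30.7, 32.4 and 33.8 scaled CPM in rabbits 875, 919 and 922 and 41.0, 52.97 and 50.6 in rabbits 239, 876 and 963. The groups did not overlap, and 3 of 4 controls were higher than both, at 62.6 to 127 scaled CPM, with rabbit 964 at 27.3. Its log2 fold change was -0.58 ± 0.13 (SE), with adjusted p = 0.0619 by edgeR, and 0.00624 by DESeq2. NECTIN1, an immunoglobulin-like adhesion molecule of adherens junctions, had 46.4, 59.7 and 46.3 scaled CPM in the high and 36.5, 44.6 and 45.4 in the low rabbits. Its groups were separated by less than 1 scaled CPM, and the log2 fold change of 0.26 ± 0.15 (SE) did not pass (adjusted p = 0.349 by edgeR). CDH3 (P-cadherin, a cell adhesion protein of basal epithelial cells) had 10.9, 14.5 and 7.44 scaled CPM in the high and 8.64, 14.2 and 13.1 in the low rabbits (log2 fold change -0.14 ± 0.30 SE, adjusted p = 0.830 by edgeR). SDC1 (syndecan-1, a heparan sulfate proteoglycan of the epithelial cell surface) had 85.4, 86.2 and 77.1 scaled CPM in the high and 56.3, 78.5 and 92.5 in the low rabbits (log2 fold change 0.13 ± 0.19 SE, adjusted p = 0.732 by edgeR). The groups overlapped in both CDH3 and SDC1, whose signs changed when a single rabbit was left out.

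ECM1, a secreted glycoprotein of the extracellular matrix of skin and mucosa, had 157, 126 and 109.9 scaled CPM in rabbits 875, 919 and 922 and 87.9, 46.7 and 144 in rabbits 239, 876 and 963. Rabbit 963 lay among the high rabbits, and the log2 fold change of 0.50 ± 0.38 (SE) did not pass (adjusted p = 0.472 by edgeR). Without rabbit 963 it was 0.97, with adjusted p = 0.0720. The control mean lay above the means of high and low rabbits in CDH3, NECTIN1, SDC1, CLDN7, ECM1 and both genes of the pair, but control rabbit 964 lay below both means in all of these except ECM1. The controls had 10.7 (rabbit 964) and 21.1 to 36.0 scaled CPM of CDH3. They had 29.6 (rabbit 964) and 106 to 170.3 scaled CPM of NECTIN1. They had 61.4 (rabbit 964) and 168 to 284 scaled CPM of SDC1.

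**Figure D5:**
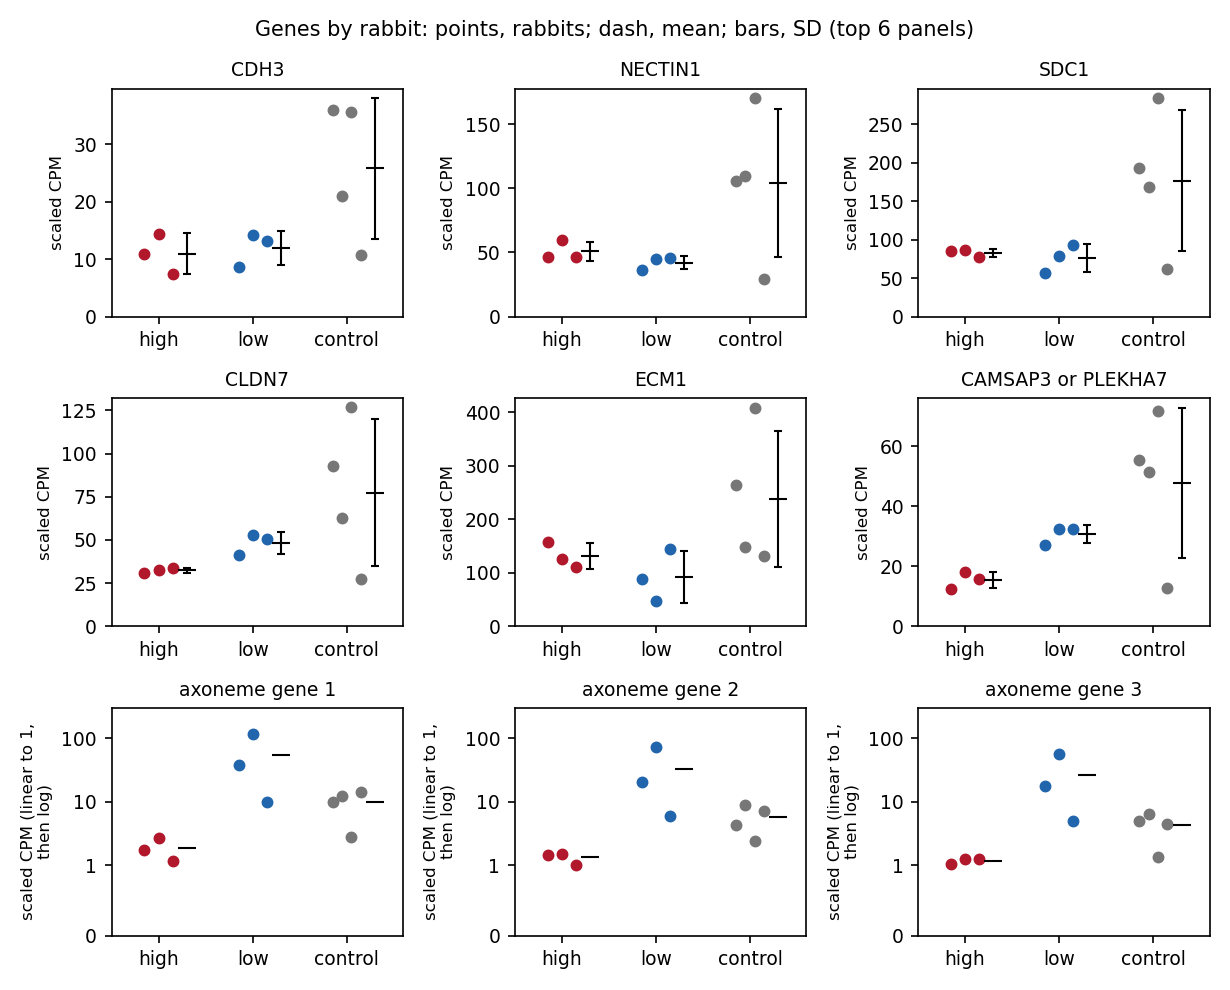
Scaled CPM by rabbit for 5 genes of the epithelial barrier and matrix, for ENSOCUG00000022921 (CAMSAP3 or PLEKHA7) and for the 3 axoneme genes (linear to 1, then log axis); points are rabbits in the order 875, 919, 922, then 239, 876, 963, then 240, 869, 921, 964, dashes are means, and bars in the 6 upper panels are SD. High and low rabbits overlap in CDH3, SDC1 and ECM1, and do not in the axoneme genes, where the high rabbits lie at 1.02 to 2.72 and the low rabbits at 5.00 to 116 scaled CPM.

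Of the 8 genes listed under intermediate filament, the cytoskeletal filaments that in epithelium are built of keratins, 4 were above 0 and 4 below (median log2 fold change 0.13). In edgeR's test 1 passed, beside 3.83% of all genes. Without rabbit 963, 3 were higher and 1 lower, beside 18.4% of all genes. The 1 that passed had 16.9, 16.3 and 25.9 scaled CPM in rabbits 875, 919 and 922 and 40.2, 60.9 and 43.0 in rabbits 239, 876 and 963. High rabbits lay below all low rabbits and all 4 controls, which had 34.1 to 166 scaled CPM. Its log2 fold change was -1.29 ± 0.24 (SE), with adjusted p = 0.0424 by edgeR, and this call too was lost without any one rabbit other than 963 (adjusted p = 0.0786 to 0.173).

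The 3 term genes that were higher in the high rabbits were listed under response to nutrient levels or regulation of fatty acid metabolic process. Of 5 genes under response to nutrient levels, 2 were higher and passed, beside 0.784% of all genes tested that were called higher. The first, listed also under energy homeostasis and chromatin DNA binding, had 159, 176 and 185 scaled CPM in rabbits 875, 919 and 922 and 26.1, 44.8 and 24.1 in rabbits 239, 876 and 963. The controls had 10 to 29.3 scaled CPM, near or below the low rabbits, so that all 3 high rabbits stood above the other 7. Its log2 fold change was 2.45 ± 0.26 (SE), a 5.46-fold difference, with adjusted p = 0.0163 by edgeR. The second, listed also under apoptotic process and regulation of peptidase activity, had 105, 84.9 and 82.6 scaled CPM in the high, 39.2, 50.2 and 41.6 in the low and 18.2 to 58.2 in the control rabbits (log2 fold change 1.05 ± 0.15 SE, adjusted p = 0.0283 by edgeR). Another gene, an extracellular enzyme inhibitor under regulation of fatty acid metabolic process, had 169, 176 and 154 scaled CPM in the high, 51.1, 45.04 and 71.7 in the low and 34.1 to 52.9 in the control rabbits (log2 fold change 1.57 ± 0.19 SE, adjusted p = 0.0182 by edgeR). In this gene as well the high rabbits lay above all others. Without rabbit 239, 875, 919 or 922 none of the 3 genes passed (adjusted p = 0.0555 to 0.127 by edgeR), and without rabbit 876 or 963 all did.

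The remaining lists are given by their counts, beside 3.83% of all genes called by edgeR, 22.9% at an unadjusted p of 0.05, 14.4% called by DESeq2 and 18.4% called by edgeR without rabbit 963. Of 16 genes under apoptotic process, 2 were higher and 1 lower, which are the 2 nutrient genes and the bitter taste gene given above. At an unadjusted p of 0.05 that list had 10 genes, with DESeq2 8, and without rabbit 963 7 higher and 1 lower. Extracellular exosome, the longest list with 52 tested genes, had 2 lower genes (median log2 fold change 0.23). It had 17 at an unadjusted p of 0.05 and 9 with DESeq2. Without rabbit 963 it had 16 higher and 5 lower of 53 tested. Structural molecule activity had 1 of 12, the intermediate filament gene (median 0.13), and without rabbit 963 it had 4 higher and 1 lower. Blood vessel development (10 genes, median 0.54), wound healing (6 genes, 0.41), water homeostasis (3 genes, 1.07), ephrin receptor activity (3 genes, 0.56) and calcium ion binding (12 genes, 0.35) had 0 genes past the threshold in edgeR's test. At an unadjusted p of 0.05 these 5 lists had 6, 2, 2, 2 and 2 genes, with DESeq2 1, 1, 1, 0 and 1, and with limma-voom 0. Without rabbit 963 they had 3, 2, 2, 2 and 4, with 13 genes then tested under calcium ion binding. Response to temperature stimulus (4 genes, median 0.88), endopeptidase inhibitor activity (4 genes, 0.10), p53 signaling pathway (3 genes, -0.03) and transcriptional activator activity (5 genes, -0.26) likewise had 0 genes by edgeR and by limma-voom. For these 4 lists the counts were 1, 2, 1 and 2 at an unadjusted p of 0.05, 1, 1, 1 and 0 with DESeq2, and 2, 1, 1 and 1 without rabbit 963.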

How the data were processed

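RNA-Seq libraries of whole vocal folds were made from poly-A RNA (RNeasy Fibrous Tissue Mini Kit, NuGEN Universal Plus mRNA kit) of 10 separate rabbits. The authors trimmed the reads and mapped them to OryCun2.0 with the Ensembl annotation. Per the submitters' processing notes STAR 2.5.4b and HTSeq 0.7.0 were used, and the authors deposited raw counts per gene for 23669 genes, with 5 lines of unassigned alignments, which were removed. Whether counting used strand is not given in the sources used here, so overlapping and antisense genes, near-identical copies and the unnamed genes among them are uncertain. Columns left unused numbered 0. Gene counts per library were 39039165 to 69670859.

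The 6 dehydrated libraries were divided at 100 CPM of NR4A3, and high was compared with low by edgeR 4.0.16 (quasi-likelihood test, TMM, filterByExpr, Benjamini-Hochberg over all genes tested, threshold 0.05; R 4.3.3). NR4A3 was dropped after adjustment. Standard errors are |log2 fold change|/√F of each gene. Scaled CPM used TMM factors over all 10 libraries. The study's own test compared dehydrated with control rabbits and was not rerun. Its random assignment of rabbits does not extend to this split. The rabbits, term lists and rules were chosen with earlier results of these data known. Alternatives were DESeq2 1.42.0, RLE factors, total counts, limma-voom (limma 3.58.1), no filter on low counts, all 10 rabbits in the fit, a block for the class of ambiguous alignments (above or below 1%), NR4A3 as a continuous covariate, and leaving out each dehydrated rabbit. The edgeR test was run on simulated counts, and the outcome is not given here. Those counts were drawn gene by gene around a mean shared by the group. They did not cover a rabbit that stands apart across many genes. Python 3.11.15, with pandas 2.3.3, numpy 2.4.6 and matplotlib 3.10.9, served for summaries and plots.

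The deposited table pairs no IDs with names, and 0 of its IDs were found in the RefSeq gene table given for this work (assembly mOryCun1.1), so no coordinates or sequences are given. Names were taken where the terms the study lists for a gene single out 1 ID (CDH3, NECTIN1, SDC1, CLDN7, ECM1, S100A8) or a pair (CAMSAP3, PLEKHA7). Of the 137 IDs under those terms besides NR4A3, 136 were in the table. The rule for named genes was these, plus the 2 IDs with the smallest p-values in each direction among genes past the threshold without overlap. The 24 term lists are described by counts and medians, with no set test.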

Additional observations from a re-analysis of the deposited data

Results flagged for a closer look

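In 24 groups of 4 or more rabbits (each of the 12 named genes in the dehydrated and in the control rabbits), the gap between the highest or lowest rabbit and its neighbour was set against Dixon's critical value, which chance passes in about 1 in 20 groups. It was passed by 2 values. S100A8 in the dehydrated rabbits was highest in rabbit 239, at 37.6 scaled CPM, against 2.55 to 12.9 in the other 5. ENSOCUG00000003951 in the controls was highest in rabbit 964, at 3.59 scaled CPM, against 1.56 to 1.66 in the other 3.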

How the results depend on the processing

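Genes called numbered 566 (116 higher, 450 lower in high NR4A3). They numbered 2128 with DESeq2 (752 higher, 1376 lower), 341 with total counts (34, 307), 234 with limma-voom (56, 178), 1534 with NR4A3 as a continuous covariate (422, 1112), 566 with RLE factors (122, 444), 621 with no filter (118, 503), 524 with all 10 rabbits in the fit (36, 488) and 724 with the block for ambiguous alignments (107, 617). Leaving out 1 rabbit gave 5 to 2789 genes (1 to 1346 higher, 4 to 1443 lower). The share of lower genes among calls was 79.5%, and 64.7% with DESeq2, 90.0% with total counts, 93.1% with all 10 rabbits and 51.7% without rabbit 963. Of the 566 genes, 566 were called again with DESeq2, 560 with RLE factors, 349 with all 10 rabbits, 324 with total counts and 231 with limma-voom. Total counts moved the median log2 fold change of all genes from -0.01 to -0.14. Genes without overlap numbered 4351, 4364 with RLE factors, 3208 with total counts, 4638 with no filter and 5456 to 7856 with 1 rabbit left out, where fewer rabbits are compared.

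Term list genes called numbered 13, and 37 with DESeq2, 5 with limma-voom, 28 with the continuous covariate and 0 to 54 with 1 rabbit left out. Of the 8 genes matched to names or to the pair, 1 was called, and 2 with DESeq2 and with the continuous covariate, 0 with total counts and with all 10 rabbits, and 0 to 1 with 1 rabbit left out. The log2 fold change of CDH3 turned from -0.14 to 0.01 without rabbit 876 and 0.094 without rabbit 922 (range -0.38 to 0.094), and that of SDC1 from 0.13 to -0.048 without rabbit 239 (range -0.048 to 0.30). The causes were not tested. No paired analysis was possible because the rabbit numbers differ between the groups. Depth, at 39039165 gene counts or more, left a smallest detectable level of at most 0.0717 scaled CPM; 3 rabbits a group limit precision.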
